A study of Mus musculus with 12 samples.

Results

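The mouse genes for interleukins, for ligands of the TNF superfamily and for the receptors of both were measured in 3 immortalized mouse cell lines. They were taken as every gene whose symbol starts with Il, Tnfsf or Tnfrsf followed by a digit, plus Tnf, Lta and Ltb. The gene table held 119 such genes, and 112 of them had probes on the array, out of 25128 genes and unnamed targets measured. Of the 112, 48 encode ligands and 60 encode receptor chains, and the remaining 4 are antagonists, a binding protein and an enzyme. The 7 genes without a matched target, Il12b and Il1rapl1 among them, are not analysed here.

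AtT20 is a corticotroph tumor line of the mouse pituitary, BV2 is a microglial line immortalized with a retrovirus, and N18 is a neuroblastoma line. All 3 were grown untreated in the same serum-containing medium, and the BV2 cultures were kept under conditions meant to hold them in a resting state. Total RNA was extracted separately from 4 plates per line and each plate was hybridized to 1 single-color array, with up to 3 probes per target. Each group is therefore 1 cell line, and the spread between plates does not include differences between lines of the same cell type.

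Interleukins and TNF superfamily ligands are secreted or membrane-bound proteins through which immune and other cells signal to each other. Most interleukin receptors are built from a ligand-specific chain and a shared chain, and signal through JAK kinases and STAT transcription factors. Receptors of the IL-1 family instead recruit the adaptor Myd88 and the IRAK kinases, and TNF receptors recruit TRAF adaptors or, where they carry a death domain, proteins such as TRADD and FADD. Microglia are the resident macrophages of the brain and a known source of IL-1, IL-6 and TNF there.

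On each plate the level of a gene was taken as the log2 intensity of its probes, averaged on the linear scale, minus the mean log2 intensity of 10 seminal vesicle and prostate proteins, which were assumed to be expressed in none of the lines. A gene was called above the threshold in a line when its mean level over 4 plates exceeded 2 SD of the seminal proteins. The threshold was 0.37 ± 0.11 (SD, n = 4) for the plates labelled AtT20, 0.56 ± 0.15 for BV2 and 0.74 ± 0.10 for N18. Levels of different genes come from different probes and were not set against each other. In RNA from a whole plate, fewer cells with a transcript and less transcript per cell cannot be told apart.

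The lines were checked against markers of their cell types. In BV2, 7 of the 9 microglia and macrophage markers measured were above the threshold, among them Csf1r (4.70 ± 0.39), Adgre1 (4.27 ± 0.36) and Spi1 (4.06 ± 0.29), whereas Aif1 (0.30 ± 0.18) and Cx3cr1 (0.40 ± 0.18) were not. Of these 9, 3 also passed in N18 and 1 on the AtT20 plates. Trem2 passed in all lines, at 1.24 ± 0.18 in BV2, 1.52 ± 0.10 in N18 and 0.82 ± 0.33 for AtT20. In N18, 11 of 12 neuroblastoma markers were above it, with Gap43 at 5.05 ± 0.17 and Stmn2 at 4.48 ± 0.22, whereas Nefl (-0.09 ± 0.08) was not. Of the same 12, 9 also passed on the AtT20 plates and 7 in BV2. In the test between N18 and BV2 described below, 9 of the 12 were higher in N18, and Th, Nefl and Nefm were lower. On the plates labelled AtT20 only 2 of 9 corticotroph markers passed, and Pomc (0.29 ± 0.26), Tbx19 (0.02 ± 0.06) and Pcsk1 (0.14 ± 0.05) did not, so that these plates go against their label and are called by it only as a name. Of the same 9, 2 passed in BV2 and 5 in N18. Of all features, 35%, 53.3% and 55.4% were above the threshold on the AtT20, BV2 and N18 plates. The intensities of the AtT20 plates also spread less over probes, with an interquartile range of 0.38 to 0.78 on the log2 scale against 1.28 to 1.73 in BV2 and 1.91 to 2.21 in N18. The part of this narrow range in the results on these plates was not tested. Of 7 lymphocyte markers, 4, 3 and 2 were above the threshold on the AtT20, BV2 and N18 plates, and the mean level of that list over a plate ranged from 0.63 to 1.06 for AtT20, from 0.86 to 1.08 for BV2 and from 0.80 to 1.05 for N18.

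Genes of these families were above the threshold most often in BV2. There, 58 of the 112 genes passed (51.8%), close to the 53.3% of all features that did. In N18, 34 genes passed (30.4%) against 55.4% of all features, and on the plates labelled AtT20, 26 genes passed (23.2%) against 35% of all features. On single plates, the number of genes above that plate's threshold was 51 to 65 in BV2, 31 to 38 in N18 and 17 to 39 for AtT20, so that BV2 did not overlap with the others. The share of all features on single plates is not given here. Receptors were above the threshold 32 times in BV2, 23 times in N18 and 13 times for AtT20 out of 60, and ligands 25, 11 and 12 times out of 48.

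In BV2 alone, 21 genes (18.8%) passed, whereas 4.49% of all features were above the threshold in that line alone. They were the ligands Il1a, Il1b, Il1f6, Il18, Il6, Il10, Tnf, Il11, Il17c and Il27, the antagonist Il1rn, and the receptor chains Il2rg, Il7r, Il6ra, Il18rap, Tnfrsf1b, Tnfrsf10b, Tnfrsf26, Il12rb1, Il17rb and Il20rb. The threshold was higher in N18 (0.74) than in BV2 (0.56). Il2rg, Il11, Il6ra, Tnfrsf1b, Il27, Il12rb1 and Il17rb lay between these values in N18, at 0.61 to 0.72. On the AtT20 plates, Il10 (0.33) and Il17c (0.34) lay just under the threshold of 0.37, each with 2 of 4 plates above their own. In BV2, Il10, Il1f6 and Il17c each had 3 of 4 plates above their own thresholds. The BV2 calls of Il10 and Il1f6 were each kept under 2 of 5 alternatives. Relative to the seminal proteins, Il11, Il12rb1 and Il17c did not pass the test between N18 and BV2 (adjusted p = 0.164, 0.151 and 0.0805). In N18 alone 5 genes (4.46%) passed against 7.02% of all features. These were Il1rap, Tnfrsf12a, Il22ra2, Il31ra and Tnfrsf13c, the last 3 named after their values were seen, as were Il11, Il17c, Il27, Il12rb1, Il17rb and Il20rb above. On the AtT20 plates alone 6 genes (5.36%) passed against 5.12%. A further 18 genes (16.1%, against 21.1% of all features) were above the threshold in BV2 and N18 but not on the AtT20 plates, and 42 genes (37.5%, against 32.4%) passed in no line.

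**Figure D1:**
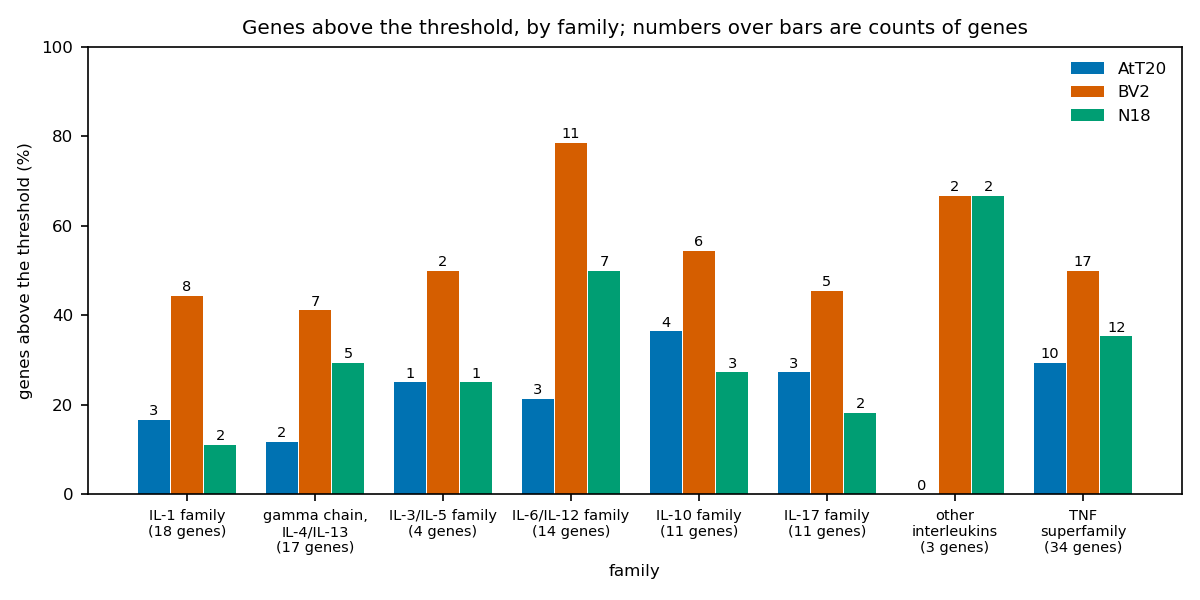
The height of each bar is the share of a family's genes, in percent, that were above the threshold in AtT20, BV2 or N18, and the number over the bar is the count of genes. BV2 has the tallest bar in 7 of the 8 families and ties with N18 in the family of other interleukin symbols.

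The calls differed in how many probes stood behind them. At least 2 probes of the gene were themselves above the threshold for 49 of the 58 genes in BV2 and for 27 of the 34 in N18, but for only 8 of the 26 on the AtT20 plates. These are 43.8%, 24.1% and 7.14% of the 112 genes, beside 42.5%, 46.2% and 18.7% of all features. All 4 plates were above their own thresholds for 51, 30 and 13 of the genes called in BV2, N18 and AtT20. No share of all features is given for these last counts, so they were not compared with the array as a whole.

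The promoters of genes above the threshold in BV2 alone were read from RefSeq (build GRCm38.p6), which held a window from 250 bases before to 50 bases after the start site for 88 of the 112 genes and for 15 of the 21. Both strands were searched for a core of PU.1, the macrophage transcription factor encoded by Spi1 (GAGGAAGT), for AP-1 (TGANTCA), for a TATA box (TATAAA), and for the kappaB motif of NF-kappaB. Of the 18 windows of the 15 genes, 1 held the PU.1 core (that of Il18rap, 5.56%), 5 held AP-1 (27.8%), 6 held TATAAA (33.3%) and 1 held kappaB (5.56%). In all 32851 windows the shares were 3.2%, 7.81%, 13.6% and 1.47%, and in the 107 windows of the 88 genes they were 2.8%, 17.8%, 18.7% and 3.74%. The 250 bases before the start site are shown for the proinflammatory ligands Il1a, Il1b, Il6 and Tnf, because all 4 were above the threshold in BV2 alone and their windows hold most of the kinds of match found. The capitals mark the matches, none of which overlap. They lie on the minus strand of chr2:129309973-129310222 (Il1a) and chr2:129371140-129371389 (Il1b), the plus strand of chr5:30012864-30013113 (Il6) and the minus strand of chr17:35202008-35202257 (Tnf).
Il1a: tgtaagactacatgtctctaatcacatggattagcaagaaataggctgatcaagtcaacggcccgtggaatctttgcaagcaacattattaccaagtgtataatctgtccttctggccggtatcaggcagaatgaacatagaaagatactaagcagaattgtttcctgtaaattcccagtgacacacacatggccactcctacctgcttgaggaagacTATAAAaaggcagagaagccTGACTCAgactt
Il1b: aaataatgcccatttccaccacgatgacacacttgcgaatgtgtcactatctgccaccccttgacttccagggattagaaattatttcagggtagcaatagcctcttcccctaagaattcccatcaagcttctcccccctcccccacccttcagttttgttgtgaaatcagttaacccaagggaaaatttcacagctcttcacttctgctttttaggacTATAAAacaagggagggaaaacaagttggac
Il6: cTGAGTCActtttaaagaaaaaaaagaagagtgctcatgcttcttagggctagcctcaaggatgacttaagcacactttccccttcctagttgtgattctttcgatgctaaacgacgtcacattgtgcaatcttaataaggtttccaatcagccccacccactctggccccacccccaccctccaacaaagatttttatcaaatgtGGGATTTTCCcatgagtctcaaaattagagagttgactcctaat
Tnf: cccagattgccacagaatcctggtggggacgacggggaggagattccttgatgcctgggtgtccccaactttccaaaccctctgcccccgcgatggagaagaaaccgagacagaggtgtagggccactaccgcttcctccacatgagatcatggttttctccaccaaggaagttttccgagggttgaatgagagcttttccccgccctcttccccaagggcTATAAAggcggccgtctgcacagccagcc
The TATAAA of Il1a, Il1b and Tnf starts 32, 31 and 29 bases before the start site. The AP-1 letters lie 12 bases before it in Il1a and 249 bases before it in Il6, whose kappaB letters start at 44 bases before it. A match of letters is a description of the window and no measurement of binding.

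BV2 and N18, in which most markers of the labelled cell type passed, were compared next. The arrays of both were quantile normalized together and tested with limma, with p values adjusted over all features. The genes of these families were mostly lower in N18 than in BV2. Of the 112, 62 (55.4%) were lower and 15 (13.4%) higher in N18, beside 36.1% and 25.8% of all features. The median difference of N18 from BV2 was -0.27 over the 112 genes and -0.08 over all features. Without normalization the members split into 33 lower (29.5%) and 16 higher (14.3%), beside 10.6% and 34.1% of all features, whose median then moved to 0.15. With levels relative to the seminal proteins, 40 (35.7%) were lower and 30 (26.8%) higher, beside 15% and 41.9%, with a median of all features at 0.18. Under each of the 3 scalings the share of members that was lower exceeded the share of all features, and the share that was higher fell short of it.

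A difference of at least 1 on the log2 scale, with the gene above the threshold in the higher line, was met by 25 members (22.3%) that were lower in N18, beside 5.4% of all features, and by 2 (1.79%) that were higher, beside 7.08%. The 25 were lower in all 3 scalings, and for 24 of them at least 2 probes were above the threshold in BV2, the exception being Lta.

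**Figure D2:**
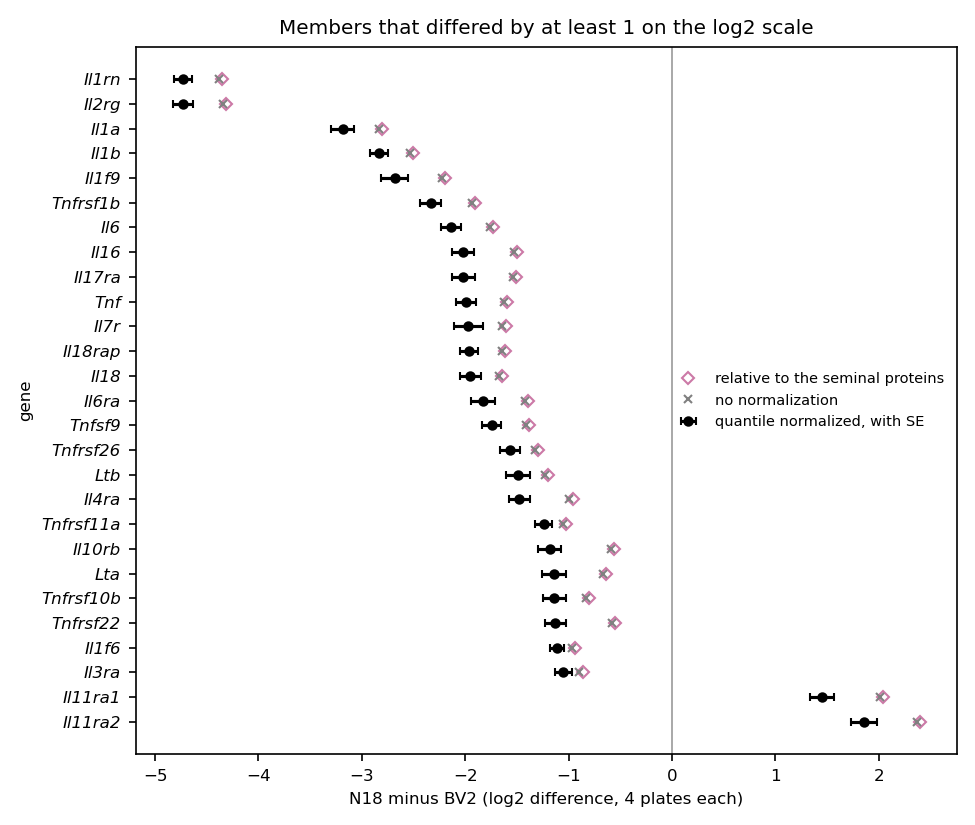
The horizontal axis is the difference N18 minus BV2 on the log2 scale for the 27 genes that differed by at least 1, listed on the vertical axis. Filled circles with SE bars are quantile normalized values, diamonds are levels relative to the seminal proteins and crosses are values without normalization. From Il1rn at -4.73 to Il3ra at -1.05 every symbol lies left of 0, and those of Il11ra1 and Il11ra2 lie right of it.

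Of the 18 genes of the IL-1 family, 8 were above the threshold in BV2 (44.4%), 2 in N18 (11.1%) and 3 on the AtT20 plates (16.7%), beside the 53.3%, 55.4% and 35% of all features. The 5 of 7 ligands that passed in BV2 (Il1a, Il1b, Il18, Il1f6 and Il1f9) were all at least 1 lower in N18 on the log2 scale. Il1a, which encodes the membrane-associated form of IL-1, had levels of 3.52, 2.42, 2.70 and 3.37 in BV2, of 0.35, 0.09, 0.13 and 0.23 in N18 and of -0.02, 0.13, 0.01 and 0.17 for AtT20. Il1b, the secreted form that is cleaved by caspase-1, was at 2.62, 1.91, 2.14 and 2.64 in BV2, between -0.32 and -0.09 in N18 and between -0.05 and 0.04 for AtT20. Every BV2 plate of both genes was above every plate of the other lines. Il1a was higher in BV2 than in N18 by 3.18 ± 0.11 (difference ± SE, n = 4 plates each) and Il1b by 2.84 ± 0.09 (adjusted p = 1.48e-11 and 4.67e-12). Because both were below the threshold in N18, these are at least 4.7-fold and at least 3-fold on the scaling that gives the smallest value.

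The antagonist of these ligands was high in the same line. Il1rn, which encodes the receptor antagonist that blocks IL-1 signaling, was measured by 6 probes, all above the threshold in BV2. Its levels were 5.13, 4.46, 4.40 and 5.13 on the BV2 plates, 0.52, 0.44, 0.38 and 0.38 in N18 and between -0.03 and 0.27 for AtT20. The BV2 plates were higher than the N18 plates by 4.73 ± 0.09 (adjusted p = 6.61e-14), or at least 16.4-fold, and higher than the AtT20 plates by 3.94 ± 0.14 (adjusted p = 7.34e-11), or at least 8.2-fold. Il1f9, an IL-36 ligand, stood at 3.10 ± 0.45 in BV2, 0.91 ± 0.28 in N18 and 0.47 ± 0.24 for AtT20. Its neighbour Il1f6, with no other protein-coding gene between them, reached 0.61 ± 0.16 in BV2, near the threshold, and -0.32 ± 0.06 in N18. Il18, the ligand that induces interferon gamma in lymphocytes, was at 1.59 ± 0.36 in BV2 and -0.05 ± 0.08 in N18. Il33, the ligand of the ST2 receptor Il1rl1, was below the threshold in each line, as was Il1rl1 itself, although in N18 a single probe of each was above it, at 1.35 ± 0.27 for Il33 and 0.86 ± 0.17 for Il1rl1. The inhibitor of IL-18, Il18bp, was above the threshold on the AtT20 plates alone, at 0.45 ± 0.25, with 2 of 4 plates above their own. That call was kept under 2 of 5 alternatives. In BV2 (0.25 ± 0.09) and N18 (0.33 ± 0.06) Il18bp lay under the higher thresholds of those lines.

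Of the 8 receptor chains of this family, 2 were above the threshold in BV2, 1 in N18 and 1 for AtT20. Il1r1, the signaling receptor for IL-1, was at 1.01 ± 0.29 in BV2, 0.70 ± 0.10 in N18, just under the threshold, and 0.38 ± 0.29 for AtT20, just over the lower threshold there. That AtT20 call rested on plate 1 (0.80), the only AtT20 plate above its own threshold, and was kept under 0 of 5 alternatives. The co-receptor of Il1r1, Il1rap, was the reverse, at 1.09 ± 0.20 in N18 with 4 of its probes above the threshold, 0.46 ± 0.16 in BV2 and -0.05 ± 0.08 for AtT20. Il1rap was higher in N18 than in BV2 by 0.31 ± 0.09 (adjusted p = 0.00932), with plates from 0.90 to 1.37 in N18 and from 0.28 to 0.60 in BV2. With all 12 arrays normalized and fitted together this difference did not pass (adjusted p = 0.0781). Il18rap, the accessory chain of the IL-18 receptor, was at 1.74 ± 0.21 in BV2 and 0.12 ± 0.06 in N18, a difference of 1.97 ± 0.09 (adjusted p = 1.59e-10). The ligand-binding chain Il18r1, which lies next to it in the genome and was named after its values were seen, was below the threshold in every line, at -0.05 ± 0.08 in BV2 and 0.32 ± 0.09 in N18.

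**Figure D3:**
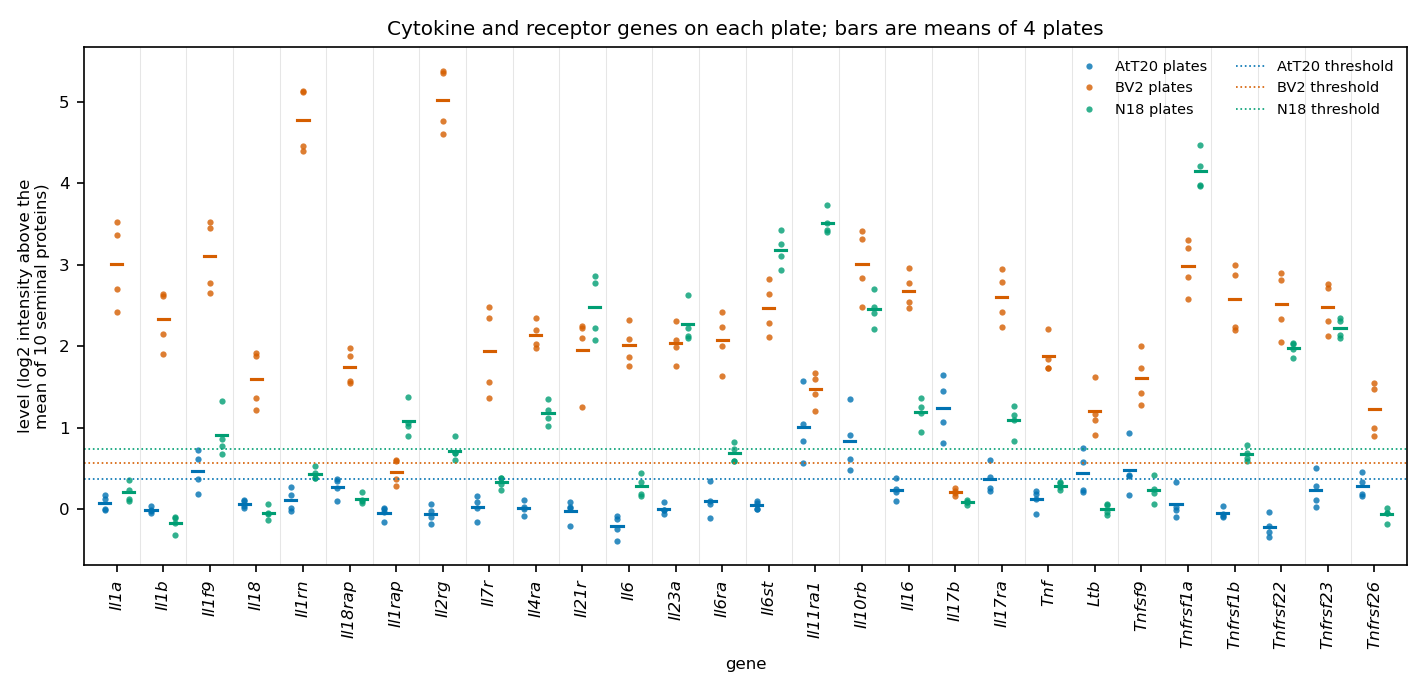
The vertical axis is the level of each gene (log2 intensity above the mean of the 10 seminal proteins) and the horizontal axis lists 28 genes; each point is 1 plate, short bars are means of 4 plates and dotted lines are the thresholds of the lines. The BV2 points of Il1rn and Il2rg lie between 4.40 and 5.39, far above both other lines, whereas those of Il6st, Il11ra1 and Tnfrsf1a lie below the N18 points.

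The family of the common gamma chain was counted with IL-4, IL-13 and their receptors. Of its 7 ligands, none was above the threshold in BV2 or N18, and 1, Il21 (0.43 ± 0.23, named after its values were seen), was just above it for AtT20. Of its 10 receptor chains, 7 were above it in BV2 and 5 in N18. Together, 41.2% of these 17 genes were above it in BV2 and 29.4% in N18, beside 53.3% and 55.4% of all features. Il2rg, the chain shared by the receptors for IL-2, IL-4, IL-7, IL-9, IL-15 and IL-21, had levels of 5.39, 4.76, 4.61 and 5.36 in BV2, 0.69, 0.60, 0.68 and 0.89 in N18 and between -0.18 and 0.06 for AtT20. All 3 of its probes showed this, with BV2 means of 5.29, 5.44 and 3.93 and N18 means of at most 0.90. It was higher in BV2 than in N18 by 4.73 ± 0.10 (adjusted p = 1.18e-13), or at least 19.5-fold, and than in AtT20 by 4.58 ± 0.14 (adjusted p = 3.12e-11), or at least 9.8-fold. In N18 it fell just short of the threshold, with 2 of the 4 plates above their own.

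The chains that pair with it were not uniform. Il7r, for IL-7, had 2.34, 1.37, 1.55 and 2.48 on the BV2 plates against 0.33 ± 0.07 in N18. Il4ra, for IL-4, was above the threshold in both lines, at 2.14 ± 0.17 in BV2 and 1.18 ± 0.14 in N18, and lower in N18 by 1.48 ± 0.10 (adjusted p = 1.99e-08). Il13ra1, which can pair with Il4ra in place of Il2rg, was at 1.16 ± 0.37 and 0.99 ± 0.17. The difference of N18 from BV2 in Il13ra1 was -0.56 ± 0.12 (adjusted p = 0.0015). Relative to the seminal proteins it was -0.17 and did not pass (adjusted p = 0.359). Il21r, for IL-21, was at 1.95 ± 0.47 in BV2 and 2.48 ± 0.39 in N18 with overlapping plates, and did not pass the test (difference of N18 from BV2 -0.06 ± 0.21, adjusted p = 0.83). Its sign was positive without normalization and relative to the seminal proteins. The ligands Il4 and Il15 were below the threshold in every line.

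In the IL-6 and IL-12 family, 11 of 14 genes were above the threshold in BV2 (78.6%), 7 in N18 (50%) and 3 for AtT20 (21.4%), beside 53.3%, 55.4% and 35% of all features. All 5 ligands passed in BV2. Il6 had levels of 2.32, 1.87, 1.76 and 2.08 in BV2, between 0.16 and 0.44 in N18 and between -0.40 and -0.09 for AtT20, with no overlap between BV2 and the rest. It was higher in BV2 than in N18 by 2.13 ± 0.10 (adjusted p = 2.38e-10), or at least 2.4-fold. Il6ra, the chain that binds IL-6, followed at 2.07 ± 0.34 in BV2 against 0.68 ± 0.12 in N18, a difference of 1.83 ± 0.12 (adjusted p = 1.14e-08). Il6st, which encodes the shared signal transducer gp130, went the other way in level, at 2.82, 2.28, 2.12 and 2.64 in BV2 and 3.26, 3.42, 3.10 and 2.94 in N18. After quantile normalization the 2 lines did not differ by the test (0.07 ± 0.10, adjusted p = 0.567), whereas relative to the seminal proteins N18 was higher by 0.72. Both lines exceeded the AtT20 plates (0.05 ± 0.05), N18 by 1.72 ± 0.11 and BV2 by 1.52 ± 0.11 (adjusted p = 4.04e-08 and 6.79e-08).

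The only members at least 1 higher in N18 than in BV2 were the 2 receptor genes for IL-11, which also signals through gp130. Il11ra1 was at 3.40, 3.73, 3.42 and 3.52 in N18, 1.47 ± 0.21 in BV2 and 1.00 ± 0.43 for AtT20. Il11ra2 was at 3.40 ± 0.08, 1.00 ± 0.17 and 1.00 ± 0.42 in the same order. The differences of N18 from BV2 were 1.45 ± 0.12 and 1.86 ± 0.13 (adjusted p = 1.17e-07 and 1.79e-08). One probe of each carried them, at 4.74 for Il11ra1 and 4.79 for Il11ra2 in N18, where the other probes lay between 0.76 and 2.17. By the median of the probes the difference of Il11ra1 was 0.33 and did not pass (adjusted p = 0.0999), and that of Il11ra2 was 0.61 (adjusted p = 0.00012). The genes are near-identical copies, so that probes of one may measure the other, and the values cannot be assigned to one of them. Among the IL-12 ligands, Il12a was at 0.95 ± 0.11 in BV2 and 0.96 ± 0.14 in N18. After quantile normalization Il12a was called lower in N18 (-0.42, adjusted p = 0.00331), whereas relative to the seminal proteins the difference was 0.0013 (adjusted p = 0.993). Il23a, the IL-23 subunit that pairs with the product of Il12b, was at 2.31, 1.76, 1.99 and 2.07 in BV2 and 2.10, 2.63, 2.22 and 2.13 in N18, with all 3 probes near 2 in both lines and near 0 for AtT20. BV2 and N18 exceeded the AtT20 plates in Il23a by 1.21 ± 0.10 and 1.11 ± 0.11 (adjusted p = 2.72e-07 and 2e-06). Between N18 and BV2 the sign of the difference depended on the scaling, -0.40 after quantile normalization and 0.24 relative to the seminal proteins.

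The IL-3, IL-10 and IL-17 families held 4, 11 and 11 genes. Above the threshold in BV2 were 2, 6 and 5 of them (50%, 54.5% and 45.5%), beside 53.3% of all features. In N18 these were 1, 3 and 2 (25%, 27.3% and 18.2%), beside 55.4%, and for AtT20 1, 4 and 3 (25%, 36.4% and 27.3%), beside 35%. In each family 1 gene (Il3ra, Il10rb and Il17ra) was lower in N18 than in BV2 by at least 1 on the log2 scale. That difference, with the gene above the threshold in BV2, was met by 5.4% of all features. Il10, an anti-inflammatory cytokine of macrophages, was modestly above the threshold in BV2, at 1.08, 0.60, 0.70 and 0.89, with all 3 of its probes above. In N18 it was at 0.05 ± 0.15, lower than BV2 by 1.00 ± 0.09 (adjusted p = 3.93e-07). Its specific receptor chain Il10ra was below the threshold in BV2 (0.47 ± 0.14) and N18 (-0.13 ± 0.08), whereas Il10rb, which several cytokines of the family share, was above it in all lines, at 3.01 ± 0.43 in BV2, 2.45 ± 0.20 in N18 and 0.84 ± 0.38 for AtT20. Il17ra, the common chain of IL-17 receptors, was at 2.60 ± 0.33 in BV2 and 1.09 ± 0.18 in N18, a difference of 2.02 ± 0.11 (adjusted p = 1.65e-09). Il3ra was at 0.69 ± 0.23 in BV2, just above the threshold, and -0.17 ± 0.07 in N18. Il16, a chemoattractant for CD4 cells, was at 2.68 ± 0.22, 1.18 ± 0.18 and 0.23 ± 0.12 in BV2, N18 and AtT20, so that each line was separate from the others. Il34, a ligand of the receptor Csf1r, was above the threshold in BV2 and N18 on 1 probe, as described below.

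Il17b was the clearest gene of the AtT20 plates. Its levels there were 1.45, 1.64, 0.81 and 1.06, with all 3 probes above the threshold, against 0.21 ± 0.04 in BV2 and 0.09 ± 0.03 in N18. It was higher than in BV2 by 1.85 ± 0.11 and higher than in N18 by 2.29 ± 0.11 (adjusted p = 9.16e-09 and 2.9e-09), at least 1.6-fold and at least 1.4-fold. The AtT20 plates did not overlap with the others.

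Of 14 ligands of the TNF superfamily, 6 were above the threshold in BV2 (42.9%), 4 in N18 (28.6%) and 5 for AtT20 (35.7%), beside 53.3%, 55.4% and 35% of all features. Tnf had levels of 2.21, 1.73, 1.74 and 1.85 in BV2, 0.32, 0.32, 0.24 and 0.27 in N18 and between -0.06 and 0.22 for AtT20. All 3 probes were above the threshold in BV2, and the difference from N18 was 1.99 ± 0.09 (adjusted p = 2.91e-10), or at least 2.2-fold. Ltb, the next gene in the genome, whose product anchors lymphotoxin to the membrane, was at 1.20 ± 0.30 in BV2, 0.00 ± 0.06 in N18 and 0.44 ± 0.27 for AtT20, and was lower in N18 than in BV2 by 1.49 ± 0.12 (adjusted p = 1.07e-07). Tnfsf9, the ligand of 4-1BB, was at 1.61 ± 0.32 in BV2 and 0.23 ± 0.15 in N18. Tnfsf10 (TRAIL) and Tnfsf11 (RANKL) were below the threshold in every line. Ligands named after their values were seen were Tnfsf12 (TWEAK), at 1.11 ± 0.22 in BV2 and 1.77 ± 0.26 in N18, and Tnfsf13b (BAFF), at 1.05 ± 0.12 and 1.47 ± 0.19. Neither passed the test between the lines (0.16 ± 0.10 and -0.05 ± 0.09, adjusted p = 0.193 and 0.676), although both were higher in N18, by 0.66 and 0.42, relative to the seminal proteins.

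Of 20 TNF receptors, 11 were above the threshold in BV2 (55%), 8 in N18 (40%) and 5 for AtT20 (25%), beside 53.3%, 55.4% and 35% of all features. The pair that binds TNF differed in opposite directions between BV2 and N18. Tnfrsf1a, the receptor with a death domain, was at 4.22, 4.47, 3.98 and 3.97 in N18, 3.31, 2.84, 2.58 and 3.21 in BV2 and between -0.10 and 0.33 for AtT20. It was higher in N18 than in BV2 by 0.55 ± 0.10 (adjusted p = 0.000268) with no overlap of the plates. Against the AtT20 plates it was higher by 2.90 ± 0.19 in N18 and 2.08 ± 0.17 in BV2 (adjusted p = 3.9e-08 and 1.77e-07), at least 4.4-fold and at least 2.3-fold. Tnfrsf1b, the receptor without a death domain, was at 3.00, 2.24, 2.20 and 2.87 in BV2 against 0.67 ± 0.09 in N18 and -0.05 ± 0.06 for AtT20. It was higher in BV2 than in N18 by 2.33 ± 0.10 (adjusted p = 1.48e-10), or at least 3.5-fold, although 2 of the 4 N18 plates were above their own thresholds.

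Several other receptors were also lower in N18. Tnfrsf26, Tnfrsf22 and Tnfrsf23 lie next to each other in the genome. Tnfrsf26 was above the threshold in BV2 alone, at 1.23 ± 0.33 against -0.07 ± 0.08 in N18, whereas Tnfrsf22 (2.52 ± 0.40 and 1.97 ± 0.09) and Tnfrsf23 (2.48 ± 0.31 and 2.22 ± 0.12), which encode decoy receptors for TRAIL, were above it in BV2 and N18. All 3 were lower in N18 than in BV2, by 1.57 ± 0.10, 1.13 ± 0.10 and 0.86 ± 0.11 (adjusted p = 6.65e-09, 2.78e-07 and 8.94e-06), although relative to the seminal proteins the difference of Tnfrsf23 was only -0.26 and its plates overlapped. Tnfrsf10b, the mouse TRAIL receptor with a death domain, was at 1.28 ± 0.37 in BV2 and 0.49 ± 0.10 in N18. Tnfrsf11a (RANK) was at 0.78 ± 0.21 in BV2 and -0.24 ± 0.10 in N18. Tnfrsf12a, the receptor of TWEAK, was above the threshold in N18 alone, at 0.99, 1.40, 0.95 and 0.86 against 0.09 ± 0.16 in BV2, and was higher there by 0.71 ± 0.11 (adjusted p = 9.38e-05).

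For some genes 1 probe carried the level. The 3 probes of Tnfrsf9 (4-1BB) had BV2 levels of -0.80, 6.26 and 0.44, N18 levels of -0.77, 6.24 and 0.35 and AtT20 levels of -0.16, 5.04 and 0.25. The gene's own levels of 4.72, 4.69 and 3.55 thus came from the second of them in all 3 lines, and the level of that transcript is uncertain. That probe was at the upper limit of the scanner, 16 on the log2 scale, on AtT20 plates 1, 3 and 4 and N18 plates 1 and 4, and read 15.77 to 15.94 in BV2, so that its levels on those 5 plates are lower bounds. In the same way 1 of 3 probes carried Lta (3.51 for AtT20, 3.07 in BV2 and 2.09 in N18), Tnfrsf25 (3.02, 2.70 and 3.31) and, in BV2 and N18, Il34 (2.61 and 2.97). On the AtT20 plates it carried Il27ra (3.35) and Il20 (2.35). By contrast, the 3 probes of Il23a were at 2.07, 2.11 and 1.90 in BV2 and at 2.21, 2.22 and 2.37 in N18.

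**Figure D4:**
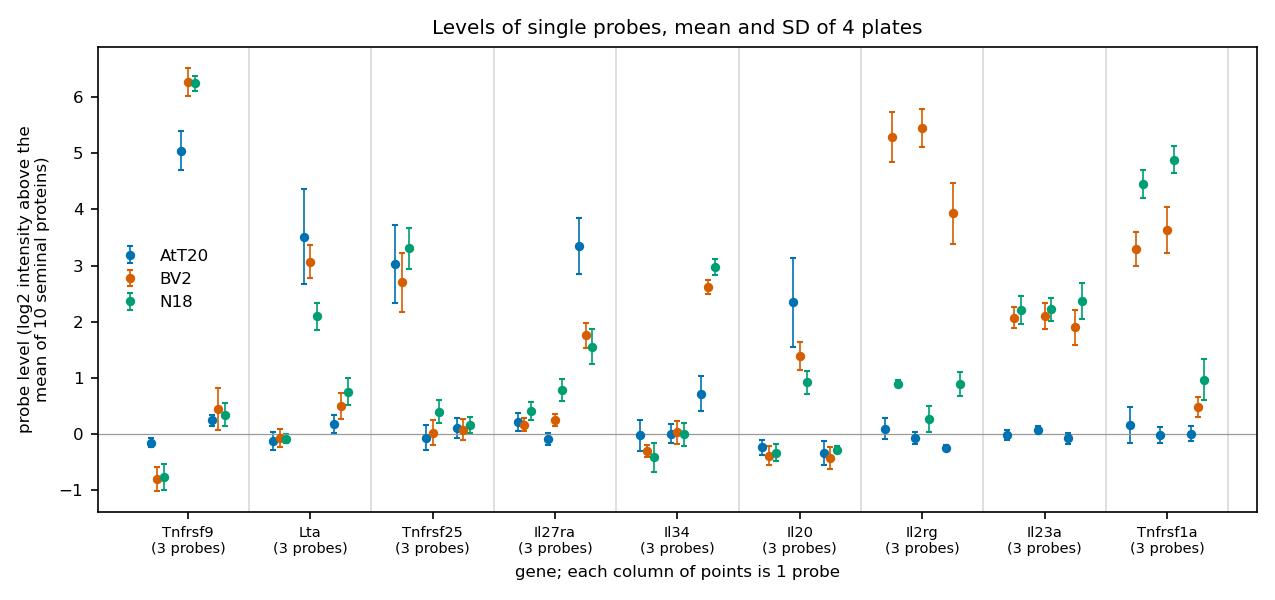
The vertical axis is the level of a single probe (log2 intensity above the mean of the 10 seminal proteins), each column of points is 1 probe of the gene on the horizontal axis, points are means of 4 plates and bars are SD. In Tnfrsf9, Lta, Tnfrsf25, Il27ra, Il34 and Il20 a single probe is far above the other 2, whereas all 3 probes of Il2rg in BV2 and of Il23a in BV2 and N18 are high together.

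Compared with the plates labelled AtT20, BV2 was higher in receptors and cytokines of the families above, led by Il2rg (4.58), Il1rn (3.94), Tnfrsf22 (2.11), Tnfrsf1a (2.08), Il1a (2.01) and Tnfrsf1b (1.82). These are among 18 genes (16.1%, beside 10.5% of all features) that were at least 1 higher on the log2 scale, each with at least 2 probes above the threshold and each also higher without normalization, by 0.55 to 3.73, and relative to the seminal proteins, by 1.91 to 5.09. In the opposite direction 8 genes (7.14%, beside 11.8%) were at least 1 lower in BV2. Relative to the seminal proteins their differences ran from -1.11 to -0.0013 and 5 of the 8 passed the test, whereas Il11ra2, Lta and Tnfrsf25 did not. Il17b was the only one of these with more than 1 probe above the threshold on the AtT20 plates, and Il27ra, Il20, Tnfsf13, Lta, Tnfrsf25, Il17rc and Il11ra2 each had 1. Of all 112 genes, 31 (27.7%) were higher and 42 (37.5%) lower in BV2, beside 24.9% and 43.6% of all features.

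That split followed the scaling. Without normalization 19 genes (17%) were higher and 83 (74.1%) lower, beside 11.4% and 74.1% of all features, and relative to the seminal proteins 65 (58%) were higher and 12 (10.7%) lower, beside 49.5% and 16.9%. The median of all features moved from -0.18 to -1.08 and 0.28 between these settings.

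N18 exceeded the AtT20 plates by at least 1 in 5 genes (4.46%, beside 12.5% of all features). These were Tnfrsf1a (2.90), Il6st (1.72), Tnfrsf22 (1.38), Il21r (1.37) and Il23a (1.11), all of which were also higher in BV2. It was at least 1 lower in 15 genes (13.4%, beside 15%), from Il17b (-2.29) to Il18bp (-1.06). Relative to the seminal proteins 11 of the 15 passed the test in that direction, and Il18bp (-0.12, adjusted p = 0.368), Tnfsf13 (-0.04) and Tnfsf9 (-0.25) did not. For 10 of the 15, a single probe was above the threshold on the AtT20 plates, and Tnfrsf25 was higher in N18, by 0.27, relative to the seminal proteins. Of all 112 genes, 17 (15.2%) were higher and 58 (51.8%) lower in N18, beside 26.7% and 46.5% of all features. Without normalization the counts were 8 (7.14%) and 94 (83.9%), beside 19.4% and 62.3%, and relative to the seminal proteins 63 (56.2%) and 24 (21.4%), beside 60.7% and 16.4%. The median of all features was -0.23, -0.85 and 0.54 in the same settings. The 3 comparisons share samples, since each line enters 2 of them.

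The genes that carry the signal of these receptors were measured as well. Of 20 genes for signaling by interleukin receptors, 14 were above the threshold in BV2 (70%), 14 in N18 (70%) and 4 for AtT20 (20%), and of 14 for signaling by TNF receptors 12 (85.7%), 12 (85.7%) and 5 (35.7%), beside 53.3%, 55.4% and 35% of all features. In N18, 12 of the 20 were lower than in BV2 (60%) and 3 higher (15%), beside 36.1% and 25.8% of all features, with a median difference of -0.91 beside -0.08. Of the 14, 9 were lower (64.3%) and 2 higher (14.3%), with a median of -0.50. These counts and medians hold for quantile normalized values, and the other scalings are not given for these lists. Of the 9, Tradd, Ripk1 and Map3k7 had levels in N18 (1.98, 1.74 and 2.49) not below those in BV2 (1.88, 1.71 and 2.28). The other genes of the 9 were also lower in level. Myd88, the adaptor of IL-1 receptors, was at 4.61 ± 0.34 in BV2, 2.48 ± 0.25 in N18 and 0.10 ± 0.05 for AtT20. Irak3, an inhibitory kinase of the same pathway, was at 4.24 ± 0.24, 2.11 ± 0.13 and 0.16 ± 0.14 in that order. Both were lower in N18 than in BV2, with differences of -2.73 ± 0.09 and -2.71 ± 0.11. Socs3, a feedback inhibitor of gp130, was at 2.27 ± 0.39 in BV2 and 1.09 ± 0.19 in N18. Stat5a was among the 3 that were higher in N18, at 2.60 ± 0.09 against 0.97 ± 0.19 in BV2. In the TNF list, Birc3, a ubiquitin ligase bound by TRAF2, was at 3.08 ± 0.34 in BV2 and 0.73 ± 0.18 in N18.

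Among 29 genes of the same families and of related cytokines that carry other symbols, 17 were above the threshold in BV2 (58.6%), 11 in N18 (37.9%) and 10 for AtT20 (34.5%), beside 53.3%, 55.4% and 35% of all features. In N18, 15 were lower than in BV2 (51.7%) and 6 higher (20.7%), beside 36.1% and 25.8%, with a median difference of -0.18 beside -0.08. For this list too, only quantile normalized values were counted. Fas, a death receptor, was at 1.66 ± 0.42 in BV2 and -0.21 ± 0.05 in N18, Csf3 at 1.74 ± 0.25 and 0.13 ± 0.09, and Osm, a gp130 cytokine, at 2.43 ± 0.23 and 0.74 ± 0.09. The opposite was measured for Ngfr, the neurotrophin receptor of the TNF receptor family, at 5.22 ± 0.23 in N18 and 0.03 ± 0.09 in BV2, and for Cntfr, the receptor of ciliary neurotrophic factor that signals through gp130, at 3.22 ± 0.28 and 0.33 ± 0.07. Cd40 was above the threshold in both, at 2.52 ± 0.28 in BV2 and 2.62 ± 0.23 in N18. After quantile normalization it was nevertheless called lower in N18 (-0.52 ± 0.09, adjusted p = 0.000305).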

How the data were processed

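Total RNA from 4 plates each of AtT20, BV2 and N18 was hybridized to 1 Cy3 array per plate (design on mouse build MM8). The deposited values are log2 intensities of 72000 probes, which the authors transformed, and no background subtraction or normalization between arrays is named or was found. Which plates shared a 4-array slide is not given in the sources used here. Transcript identifiers were matched to RefSeq symbols (69.4% of 25631 targets), and targets of a gene were averaged. Il1f symbols are those of the table. A level is relative to 10 seminal proteins, with a threshold of 2 SD. Comparisons used limma 3.58.1 under R 4.3.3 (lmFit, then eBayes with a trend) on the 8 quantile-normalized arrays of a pair, with Benjamini-Hochberg adjustment over 25128 features and a threshold of 0.05. A fold bound sets the higher line against the dimmer line's threshold or own mean, as the smallest of 3 scalings, rounded down. In RNA from 1 line each, 4 arrays limit the precision, and p values measure only the spread between plates.

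Named genes were those at least 1 apart on the log2 scale with an adjusted p under 0.05 and above the threshold in the higher line (at most 30 per comparison), a list of principal family members, and the 5 of highest level per line. Members and lists were chosen with earlier results of these data known. One listed marker is not reported here and is left out of its list's count. For levels, the alternatives were olfactory receptor controls, the probes' median, 3 SD, quantile normalization and every plate above its threshold. For comparisons they were all 12 arrays, values relative to the seminal proteins or without normalization, normexp background correction (offset 50), the probes' median, a replicate block, features above the threshold alone and a minimum difference of 1. Each plate was also left out in turn. At least 2 probes above the threshold was added after seeing the data. The fit was tested on simulated arrays for each comparison, with 200 of 25128 features changed and each line's own spread. For a change of 1 on the log2 scale, 97% were called in N18 minus BV2, 91% in BV2 minus AtT20 and 86.6% in N18 minus AtT20, and 7.69%, 11.4% and 13.8% of the calls fell on unchanged features. These shares hold for independent noise on values already normalized. They do not cover the choice of scaling, and many more features than 200 were called in the data. Other tables and the figures were made with Python, pandas and matplotlib.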

Additional observations from a re-analysis of the deposited data

Results flagged for a closer look

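In 3 of the 86 groups of 4 plates in which a named gene was above the threshold, 1 plate lay far from the other 3, where chance alone gives about 1 in 20. For Il21r in BV2, plate 2 was at 1.25 and the others between 2.10 and 2.24, a gap of 0.858 of the range. For Il27ra in BV2, plate 2 was at 0.72 and the others between 0.99 and 1.01, a gap of 0.925 of the range. For Tnfrsf9 on the plates labelled AtT20, plate 3 was at 3.07 and the others between 3.69 and 3.72, a gap of 0.961 of the range. Of these, Il27ra and Tnfrsf9 rested on 1 probe in those lines. The probe of Tnfrsf9 was at the upper limit of the scanner on AtT20 plates 1, 3 and 4, so that its level there is a lower bound set by the mean log2 intensity of the seminal proteins, which was 11.47 on plate 3 and 10.77 to 10.79 on the others.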

How the results depend on the processing

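On the AtT20 plates, 26 genes above the threshold became 8 by the median of the probes, 11 with olfactory receptor controls, 13 at 3 SD, 13 with every plate above its threshold and 8 with at least 2 probes above (added after seeing the data). BV2 went from 58 to 30 with olfactory receptor controls, and N18 from 34 to 14 with these and 20 at 3 SD. For N18 minus BV2, 15 genes higher became 8 with all 12 arrays, 30 relative to the seminal proteins, 8 among features above the threshold and 2 at a difference of at least 1, and 62 lower became 33 without normalization, 40 relative to the seminal proteins and 25 at a difference of at least 1. For BV2 minus AtT20, 31 higher became 19, 65 and 18 without normalization, relative to the seminal proteins and at a difference of at least 1, and 42 lower became 83, 12 and 8 in that order, 25 by the median of the probes and 22 among features above the threshold. For N18 minus AtT20, 17 higher became 8, 63 and 5 and 58 lower became 94, 24 and 20 in that order, and 25 among features above the threshold. The cause of these changes was not tested, apart from the tighter limits themselves. Leaving out 1 plate gave 22 to 32 genes above the threshold for AtT20, 57 to 61 for BV2 and 33 to 35 for N18. It gave 13 to 17 higher and 58 to 62 lower for N18 minus BV2, 28 to 33 and 35 to 44 for BV2 minus AtT20, and 15 to 20 and 54 to 61 for N18 minus AtT20.

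Of the differences of named genes, the sign turned for Il12a (0.0013) and Tnfrsf25 (0.27, N18 minus AtT20) relative to the seminal proteins, and for Lta (0.025, N18 minus BV2) and the levels of Il20 in AtT20 (-0.14) and Il34 in N18 (-0.033) by the median of the probes. For N18 minus BV2 it turned for Il21r (0.50 and 0.53) and Il34 (0.24 and 0.27) without normalization and relative to the seminal proteins, and leaving out 1 plate moved Il21r between -0.21 and 0.11. Of the values of differences computed under alternatives, 613 of 653 for N18 minus BV2, 384 of 390 for BV2 minus AtT20 and 292 of 300 for N18 minus AtT20 kept their sign and side of the threshold. Deviations of plates with the same number correlated weakly (r from -0.11 to 0.30), and the numbers were not used as pairs in the main fit. These values cannot show whether such plates were processed together. With a replicate block, members higher and lower numbered 15 and 62, 31 and 42, and 17 and 54 in the 3 comparisons, and no count moved by over 1.5 times. A gene below the threshold was not told apart from the seminal proteins at this signal over background.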
